A study of Mus musculus with 2 samples.

Results

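The keratin gene family was examined in total RNA from neonatal mouse calf muscle. Its members were the protein-coding genes whose symbol is Krt followed by a number and, in some, the letter a or b. The rule found 53 genes among 22028 protein-coding genes and 55536 annotated genes. The tissue was gastrocnemius, a calf muscle, from male mice aged 4 days of the hybrid strain B6CASTF1/J. There was 1 group of 2 libraries, replicate 1 and replicate 2, with no treatment and no other genotype. The labels number the animals separately but give both the same donor record, and 300 ng of starting RNA plus ERCC spike-in controls went into each library. The family was picked with the contrast between these libraries already known, so every difference between replicates below is a description of 2 libraries, with no test. What separates the animals, their dissection and their libraries cannot be told apart with 1 library each.

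Keratins build the intermediate filaments of epithelial cells, a cytoskeletal network that resists mechanical strain. A filament needs an acidic type I keratin paired with a basic or neutral type II keratin, and which pair is made depends on the epithelium and on how far its cells have matured. Basal cells of the epidermis make Krt5 and Krt14, the layers above them switch to Krt1 and Krt10, the hair follicle adds its own inner root sheath and hair shaft keratins, and simple epithelia use Krt8 and Krt18. Skeletal muscle fibres instead build their intermediate filaments mainly from desmin.

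The 53 genes comprised 28 of type I and 25 of type II. On mm10, 27 type I genes lay at chr11:99232761-100269871 and all 25 type II genes at chr15:101347444-102004482. The remaining type I gene, Krt18, lay beside the type II cluster at chr15:102028180-102032027, on the plus strand, next to its partner Krt8. By the use of each keratin known from the field, the genes were sorted into 3 basal, 6 suprabasal, 6 appendage and stress, 7 inner root sheath, 15 hair shaft, 5 simple epithelial, 4 mucosal and corneal and 6 other keratins. Krt88 was left without a class.

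Promoter sequences show how the members that were high in replicate 2 compare in their start regions with members that were not. RefSeq promoters on GRCm38.p6, each running from 250 bases before the start to 50 bases after it, were found for 36 members and gave 37 promoters. They were searched on both strands for TATAAA, the core of the TATA box that positions the start of transcription; its reverse complement is TTTATA, and no other motif was searched. The motif stood on the gene strand in 17 of the 37 keratin promoters and in 8.32% of all 32851 promoters of the same length. On either strand the figures were 19 of 37 and 13.6%. Within 50 bases before the start it began in 16 of 37, against 2.76% of all promoters. These promoters come from neighbouring, duplicated genes and are not independent of each other. The 5 below are written 5′ to 3′ on the gene's own strand, which is the minus strand in each, with TATAAA in capitals. They are Krt10 (chr11:99389315-99389614), the most abundant keratin of replicate 2; the inner root sheath partners Krt71 (chr15:101743048-101743347) and Krt25 (chr11:99322902-99323201); the basal keratin Krt5 (chr15:101712856-101713155); and the simple epithelial keratin Krt8 (chr15:102004293-102004592).
Krt10: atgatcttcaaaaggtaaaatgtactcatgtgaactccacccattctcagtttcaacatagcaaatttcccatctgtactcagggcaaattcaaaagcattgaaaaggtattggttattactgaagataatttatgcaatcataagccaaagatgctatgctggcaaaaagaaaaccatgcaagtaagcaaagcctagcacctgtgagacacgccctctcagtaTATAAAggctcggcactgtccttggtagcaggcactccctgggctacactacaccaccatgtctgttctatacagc
Krt71: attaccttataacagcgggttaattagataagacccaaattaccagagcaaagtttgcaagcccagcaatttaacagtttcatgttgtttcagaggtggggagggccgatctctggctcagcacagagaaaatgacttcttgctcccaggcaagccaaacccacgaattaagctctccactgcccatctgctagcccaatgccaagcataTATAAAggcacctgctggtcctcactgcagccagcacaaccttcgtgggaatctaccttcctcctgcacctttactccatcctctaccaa
Krt25: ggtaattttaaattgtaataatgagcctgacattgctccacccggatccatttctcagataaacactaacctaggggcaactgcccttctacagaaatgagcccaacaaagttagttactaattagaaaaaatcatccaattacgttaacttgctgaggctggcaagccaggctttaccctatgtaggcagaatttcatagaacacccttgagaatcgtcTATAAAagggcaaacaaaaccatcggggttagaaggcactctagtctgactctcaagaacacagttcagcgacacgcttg
Krt5: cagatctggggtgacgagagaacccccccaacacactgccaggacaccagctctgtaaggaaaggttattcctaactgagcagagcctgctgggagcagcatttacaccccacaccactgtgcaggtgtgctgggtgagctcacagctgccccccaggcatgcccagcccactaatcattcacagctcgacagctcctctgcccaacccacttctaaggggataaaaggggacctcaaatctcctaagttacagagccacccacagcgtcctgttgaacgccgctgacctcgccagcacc
Krt8: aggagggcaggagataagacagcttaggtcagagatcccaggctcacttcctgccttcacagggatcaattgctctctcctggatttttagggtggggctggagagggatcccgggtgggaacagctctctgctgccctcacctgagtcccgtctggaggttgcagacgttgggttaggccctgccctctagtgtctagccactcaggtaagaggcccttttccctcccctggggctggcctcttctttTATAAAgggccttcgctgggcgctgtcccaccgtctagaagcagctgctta

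The motif began 26 bases before the start in Krt10, 40 in Krt71 and 30 in Krt25. In Krt8, whose level was close in both libraries, it began 1 base before the listed start, and in Krt5 these letters were not in the window. Of the 7 inner root sheath genes, 6 held it on the gene strand, as did 5 of the 9 hair shaft genes with a promoter, 1 of 5 suprabasal, 0 of 2 basal, 0 of 2 appendage and stress, 2 of 4 simple epithelial, 2 of 3 mucosal and corneal and 1 of 4 other genes. The motif was thus found in members that differed between the libraries and in members that did not, and it was missing from some of each. A match describes letters only.

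The libraries held 35281187 and 32301531 expected read counts assigned to genes. Muscle RNA was alike in both. The 8 listed skeletal muscle genes summed to 43190 and 40200 TPM (the level per transcript length, as a share of all transcripts read), and 0 of 8 were over 2-fold apart. Among 16 other intermediate filament genes, desmin (Des) was at 718 and 662 TPM, vimentin (Vim), the filament of mesenchymal cells, at 535 and 579 TPM, and lamin A/C (Lmna) at 149 and 146 TPM. Of the 12 with a mean of 10 counts or more, 1 was over 2-fold apart by scaled counts: peripherin (Prph), a neuronal filament protein, lower in replicate 2 at 1.92 and 1.34 TPM. Outside the keratins, then, the abundant filament genes gave close values in both libraries.

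Keratin RNA was scarce in replicate 1 and plentiful in replicate 2. The 53 genes summed to 10.6 TPM in replicate 1 and 893 TPM in replicate 2, a mean of 452 ± 624 TPM (SD, n = 2), in which the SD exceeds the mean. The summed expected counts were 500 and 49731, which are 0.00142% and 0.154% of the gene counts. Scaled for library size, the counts were 105-fold higher in replicate 2, with a 95% interval of 96.4 to 115. All such intervals here are exact Clopper-Pearson intervals on how the reads split between the libraries; they cover counting error only, since reads amplified by PCR are not independent molecules, and say nothing of variation between animals. In bulk tissue, fewer cells of a type and less RNA per cell cannot be told apart.

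The difference reached most of the family but not all of it. At 1 TPM or more stood 4 keratins in replicate 1 (Krt10, Krt8, Krt80 and Krt222) and 33 in replicate 2, with 3 in both and 19 under 1 TPM in both. By the same measure 55.9% of protein-coding genes reached 1 TPM in replicate 1 and 58.1% in replicate 2. At 10 TPM or more there were 0 and 10. The median level over the 53 members was 0.02 TPM and 2.43 TPM, respectively. By TPM, 44 members were higher in replicate 2, 5 were higher in replicate 1 (Krt8, Krt19, Krt20, Krt9 and Krt222) and 4 were equal as written in the tables (Krt76, Krt24, Krt42 and Krt88). A count of 0 was found for 20 members in replicate 1 and 2 members in replicate 2. A count of 0 allows up to 3 reads, which for those 20 genes in replicate 1 is a level between 0.0345 and 0.148 TPM depending on length.

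**Figure D1:**
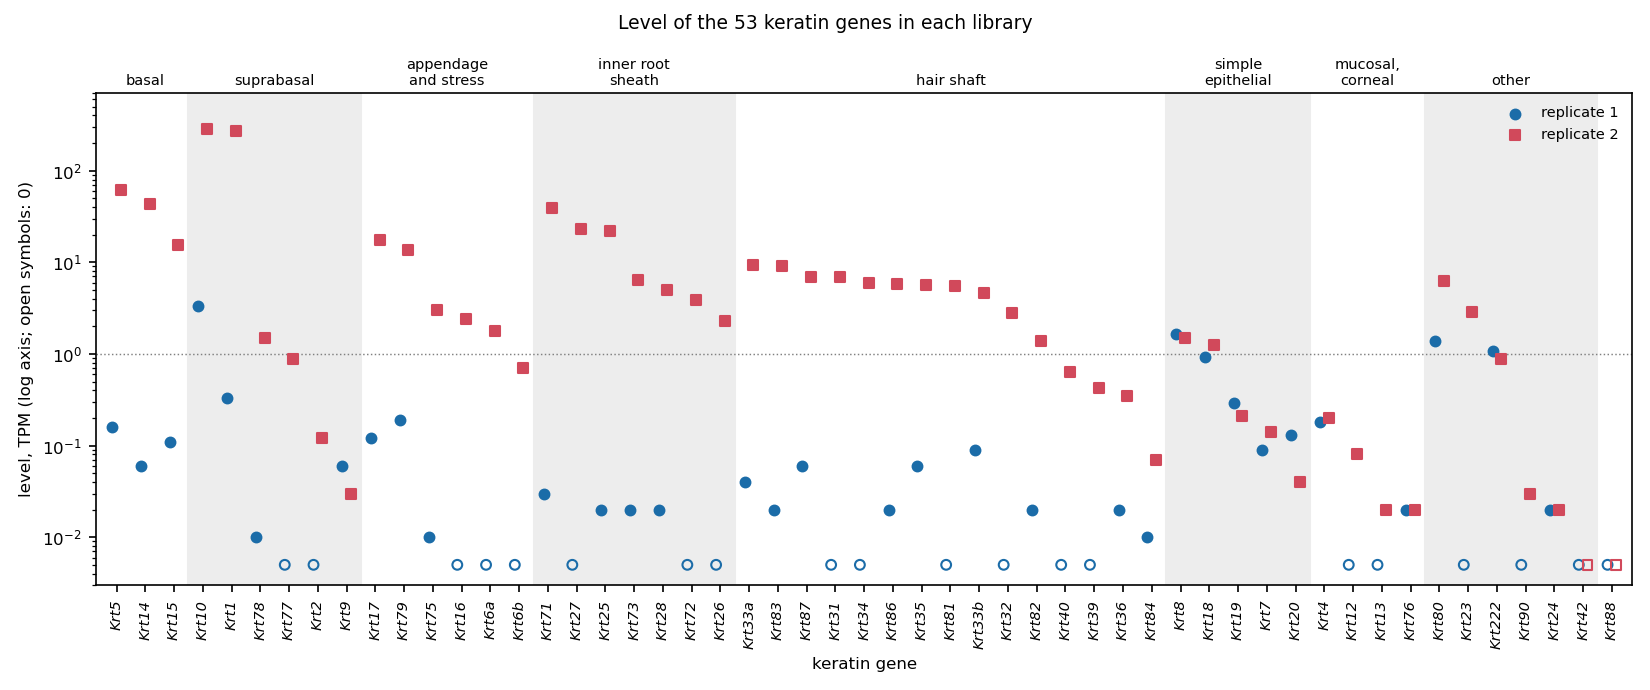
Level of each of the 53 keratin genes in TPM on a log axis, replicate 1 as circles and replicate 2 as squares, grouped by class; open symbols are values of 0 and the dotted line marks 1 TPM. Replicate 2 lies above replicate 1 for every epidermal and hair keratin except Krt9, while the symbols for Krt8, Krt18, Krt19 and Krt7 lie close together.

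The composition of the keratin pool also differed. In replicate 2, the basal, suprabasal, appendage and stress, inner root sheath and hair shaft classes, 37 genes in all, made 98.5% of summed keratin TPM, against 45.5% in replicate 1. Simple epithelial keratins made 29.0% of the pool in replicate 1 and 0.353% in replicate 2, while their summed level was 3.06 and 3.15 TPM. The other keratins made 23.6% and 1.12%. The pool was concentrated in few genes in both libraries: the leading 2 keratins held 47.0% of it in replicate 1 and 61.7% in replicate 2, and 11 and 12 genes respectively made up 90% of it. A share within replicate 1 rests on few reads, since the whole family had 500 counts there, and the order of the classes there is not firm. By counts, which are not divided by length, suprabasal keratins held 18.01% of replicate 1, simple epithelial 30.8% and other keratins 38.2%. Without 1 short transcript of Krt10, described below, suprabasal keratins held 10.4% of its TPM and simple epithelial keratins 40.2%.

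**Figure D2:**
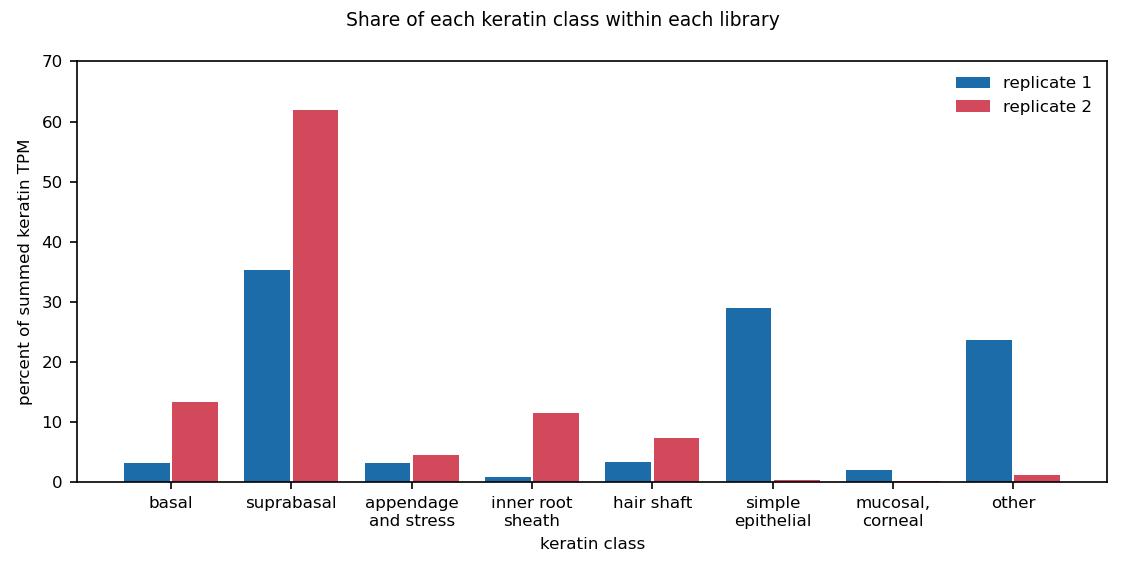
Percent of summed keratin TPM held by each keratin class, replicate 1 and replicate 2 side by side, on an axis from 0. Suprabasal keratins were the largest class in both libraries at 35.3% and 62.0%, and simple epithelial keratins held 29.0% of the pool in replicate 1 and 0.353% in replicate 2; the replicate 1 order depends on the transcript Krt10-202.

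Suprabasal keratins, made by epidermal cells that have left the basal layer and begun to cornify, carried most of the keratin RNA of replicate 2. The class summed to 3.73 TPM (90 counts) in replicate 1 and 554 TPM (32813 counts) in replicate 2, 386-fold higher by scaled counts with an interval of 314 to 480. Krt1, the type II keratin of these layers (chr15:101845426-101850794, minus strand), was at 0.33 and 269 TPM, from 23 and 17262 counts, 795-fold higher with an interval of 530 to 1254. Its type I partner Krt10 (chr11:99385254-99389364, minus strand) was at 3.33 and 282 TPM, from 62 and 15336 counts, 262-fold higher with an interval of 204 to 342. Among 22015 protein-coding genes outside the mitochondrial genome, Krt10 moved from rank 10087 to rank 179 by TPM, and Krt1 from rank 13609 to rank 188. Both were thus among the abundant messages of replicate 2 and minor ones in replicate 1.

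The lesser suprabasal members showed the same direction where they had reads. Krt78 was at 0.01 and 1.51 TPM (1 and 137 counts), a ratio of 145 with an interval of 25.6 to 5772. Krt77, also of type II, had 0 counts and then 68 counts (0.88 TPM), 24.0-fold higher when the 0 is set to 3 counts. The lower limit of its interval was 19.0. Folds of other genes with 0 counts in replicate 1 are also given with the 0 set to 3 counts. Krt2, which marks the upper spinous and granular layers, was nearly unread, with 0 and 8 counts, or 0 and 0.12 TPM. Krt9, the keratin of palm and sole skin, did not share the pattern: it had 4 and 2 counts, or 0.06 and 0.03 TPM.

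Krt10 needs its transcripts to be read apart, because its replicate 1 level rests mostly on a short form. The full-length transcript Krt10-201, of 2094 bases, was at 0.39 and 282 TPM, from 22.6 and 15332 counts, and made 11.7% and 99.9% of the gene's TPM. The 557-base transcript Krt10-202 was at 2.94 and 0.34 TPM, from 39.4 and 4.18 counts, and made 88.3% and 0.12%. Counted on Krt10-201 alone, Krt10 was 717-fold higher in replicate 2 with an interval of 470 to 1114. That interval leaves out the uncertain split of reads between the 2 transcripts. Of the 458 stretches of 100 bases in Krt10-202, 118 do not occur in Krt10-201. The table made directly from reads split the replicate 1 counts otherwise, with 45.6 on Krt10-201 and 26.4 on Krt10-202. In replicate 2 it gave them 14983 and 0 counts. The 717-fold of Krt10-201 is therefore not firm. An antisense gene on the opposite strand, Gm11940, overlaps Krt10 and had 11 and 7 counts; whether the authors' counting used strand is not given in the sources used here. Krt10-202 made 27.8% of all keratin TPM in replicate 1, and without it the summed level there was 7.62 TPM and the fold by TPM 117 in place of 84.6. The part of the overlapping antisense gene in these values was not tested.

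Basal keratins, made by the dividing layer that rests on the basement membrane, were near 0 in replicate 1 and well expressed in replicate 2. The class summed to 0.33 and 119 TPM, from 16 and 6024 counts, 399-fold higher with an interval of 245 to 698. Krt5 was at 0.16 and 60.8 TPM, from 10 and 3479 counts, 368-fold higher with an interval of 200.1 to 769. Its partner Krt14 was at 0.06 and 43.1 TPM, from 3 and 1879 counts, a ratio of 663 with an interval of 227 to 3219. Krt15, a type I basal keratin also used as a marker of follicle stem cells, was at 0.11 and 15.3 TPM, from 3 and 666 counts, a ratio of 235 with an interval of 80.1 to 1143. The intervals of these 3 genes overlap, so their ratios could not be told apart at this depth. Krt5 ranked 1059 and Krt14 ranked 1540 among protein-coding genes of replicate 2.

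Appendage and stress keratins line the outer root sheath, nail bed and glands, and several are induced in skin wounds. The class summed to 0.32 and 39.1 TPM, from 14 and 1889 counts, 143-fold higher with an interval of 85.0 to 262. Krt17, of follicle and appendage epithelium, was at 0.12 and 17.5 TPM (5 and 693 counts), 147-fold higher with an interval of 62.6 to 453. Krt79, of the follicle opening and sebaceous duct, was at 0.19 and 13.6 TPM (8 and 691 counts), 91.5-fold higher with an interval of 46.2 to 213. The follicle companion layer keratin Krt75 was at 0.01 and 3.05 TPM (1 and 263 counts), a ratio of 279 with an interval of 49.6 to 11042. Krt17 and Krt79 therefore made up most of the class in both libraries. The wound-induced keratins Krt16, Krt6a and Krt6b each had 0 counts in replicate 1. In replicate 2 they stood at 2.43, 1.76 and 0.70 TPM. With each 0 set to 3 counts these were 34.3-fold, 36.9-fold and 14.4-fold higher (lower limits 27.3, 29.6 and 11.2).

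Krt6a and Krt6b are close copies, and they share 26.6% and 30.1% of their respective 100-base stretches with each other, so the split of reads between them is uncertain. Krt14 and Krt16 shared 46 such stretches, 2.78% and 3.14% of each. In all, 16 members shared at least 1 stretch with another member and 37 shared none.

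Inner root sheath keratins, of the follicle layer that moulds the growing hair, gave the highest class ratio. All 7 genes stood at 1 TPM or more in replicate 2 and none in replicate 1. The class summed to 0.09 and 102 TPM, from 5 and 5223 counts, a ratio of 1106 with an interval of 474 to 3408. Krt71, a type II keratin made in all its layers, was at 0.03 and 39.4 TPM (2 and 2240 counts), a ratio of 1186 with an interval of 328 to 9800. Its type I partner Krt25 was at 0.02 and 22.1 TPM (1 and 1136 counts), a ratio of 1203 with an interval of 215 to 47559. Krt27, also type I, had 0 counts and then 920 counts (23.3 TPM), 325-fold higher with the 0 set to 3 counts (lower limit 264).

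The width of these intervals comes from the 1 or 2 reads of replicate 1, and they overlap those of the basal and suprabasal genes. The remaining sheath members were lower. Krt73 was at 0.02 and 6.49 TPM (1 and 366 counts) and Krt28 at 0.02 and 4.98 TPM (1 and 207 counts), ratios of 388 (interval 69.1 to 15351) and 219 (interval 38.9 to 8700). Krt72 and Krt26 had 0 counts in replicate 1 and stood at 3.90 and 2.30 TPM in replicate 2. With each 0 set to 3 counts they were 69.5-fold and 55.4-fold higher (lower limits 56.0 and 44.5). The 3 keratins known from the cuticle of the sheath, Krt72, Krt73 and Krt26, were each lower in replicate 2 than Krt71, Krt27 and Krt25. They were not all lower than Krt28, which lay below Krt73 and above Krt72 and Krt26.

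Hair shaft keratins harden the cortex and cuticle of the hair. The 15 genes summed to 0.34 and 65.7 TPM, from 18 and 2972 counts, 175-fold higher with an interval of 110.4 to 295. At 1 TPM or more stood 0 in replicate 1 and 11 in replicate 2. In replicate 2 the 8 most abundant lay between 5.56 and 9.36 TPM.

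Of the cortex and precortex members of type I, Krt33a was at 0.04 and 9.36 TPM (2 and 395 counts), a ratio of 209 with an interval of 57.5 to 1733. Krt35, made early in the forming shaft, was at 0.06 and 5.72 TPM (3 and 255 counts), a ratio of 90.01 with an interval of 30.5 to 439. Krt33b was at 0.09 and 4.58 TPM (4 and 185 counts), a ratio of 49.0 with an interval of 18.8 to 182. Krt31 and Krt34 had 0 counts in replicate 1 and 6.89 and 5.98 TPM in replicate 2. With each 0 set to 3 counts they were 98.3-fold and 86.8-fold higher (lower limits 79.3 and 70.1). These type I genes all had at most 4 reads in replicate 1. Krt32, of the hair cuticle, had 0 counts and then 2.82 TPM, 40.9-fold higher with the 0 set to 3 counts (lower limit 32.8).

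Among type II hair keratins, Krt83 was at 0.02 and 9.17 TPM (1 and 392 counts), a ratio of 415 with an interval of 74.1 to 16438. Krt87 was at 0.06 and 6.92 TPM (4 and 411 counts), a ratio of 109 with an interval of 42.2 to 401. Krt86 was at 0.02 and 5.81 TPM (1 and 295 counts), a ratio of 313 with an interval of 55.6 to 12381. Type II and type I hair keratins were thus found together and at similar levels in replicate 2. Krt81 had 0 counts and then 5.56 TPM, 93.4-fold higher with the 0 set to 3 counts (lower limit 75.3). The cuticle keratin Krt82 was at 0.02 and 1.39 TPM (1 and 76 counts), a ratio of 80.5 with an interval of 14.0 to 3220. The last 4, Krt40, Krt39, Krt36 and Krt84, stood under 1 TPM in replicate 2, at 0.63, 0.43, 0.35 and 0.07 TPM.

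Some hair keratins are also near-identical in part, which makes the split of reads between them uncertain. Of their 100-base stretches, Krt81 shared 25.0% with other members, Krt86 24.6%, Krt34 17.5%, Krt31 14.0%, Krt33a 9.99%, Krt87 5.42% and Krt83 5.17%. For each of these 7 genes the member it shared most with was another hair shaft keratin.

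Simple epithelial keratins, the filaments of single-layered linings such as ducts and mesothelium, did not share the difference. The class summed to 3.06 and 3.15 TPM, from 154 and 144 counts, a ratio of 0.991 with an interval of 0.783 to 1.25. Krt8 was at 1.63 and 1.5 TPM, from 88.8 and 76 counts, a ratio of 0.906 with an interval of 0.657 to 1.24. Its partner Krt18 was at 0.92 and 1.26 TPM, from 36 and 46 counts, a ratio of 1.35 with an interval of 0.856 to 2.15. Krt8 was the second most abundant keratin of replicate 1 and lay below all 7 inner root sheath keratins in replicate 2. Krt19, of ducts and glands, was at 0.29 and 0.21 TPM (12 and 5 counts). Krt7 was at 0.09 and 0.14 TPM (10 and 15 counts) and Krt20, of gut lining and Merkel cells, at 0.13 and 0.04 TPM (7 and 2 counts). All of their intervals included a ratio of 1.

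Genes of simple epithelium other than keratins gave other values. The 8 listed summed to 1.13 and 18.5 TPM. Of the 6 with a mean of 10 counts or more, 5 had fewer than 10 counts in replicate 1, passed through replicate 2 alone and had to differ, so their number is no result. The adhesion molecule Cdh1 was at 0.48 and 5.46 TPM and Rab25, a trafficking GTPase, at 0.37 and 4.64 TPM. The epithelial splicing factor Esrp1 was at 0 and 3.05 TPM. These genes are also made by epidermal cells, so they do not mark simple epithelium alone.

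Mucosal and corneal keratins were close to unread in both libraries. Krt4, of the oesophageal and oral lining, was at 0.18 and 0.20 TPM with 11 counts in each. Its partner Krt13 had 0 and 1 counts, the corneal keratin Krt12 had 0 and 4 counts, and Krt76, of the hard palate, had 1 in each. All 4 stood at 0.20 TPM or less in both libraries.

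The remaining keratins gave mixed values. Krt80, a widely expressed type II keratin, was at 1.39 and 6.18 TPM (117 and 474 counts), 4.29-fold higher with an interval of 3.50 to 5.30. That ratio lay well under those of the epidermal keratins, and Krt80 was the only member over 2-fold higher that also stood at 1 TPM or more in replicate 1 apart from Krt10. Krt23, an epithelial type I keratin, had 0 counts and then 116 counts (2.90 TPM), 40.9-fold higher with the 0 set to 3 counts (lower limit 32.8). Krt222, a type I keratin-like gene at the edge of the cluster, was at 1.08 and 0.89 TPM (73 and 56 counts), a ratio of 0.812 with an interval of 0.563 to 1.17. In both Krt80 and Krt222 the leading transcript was the same in each library: Krt80-201 made 74.6% and 84.2% of the TPM of its gene, and Krt222-202 made 53.8% and 55.2%. Of all members, 30 have 1 annotated transcript and 23 have more. Krt24 had 1 count in each library, Krt90 had 0 and 2, and Krt42 and Krt88 had 0 in both.

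Type II and type I partners, which must be present together to form a filament, were compared within each library. Summed over the family, type II over type I was 0.658 in replicate 1 and 0.962 in replicate 2 by TPM, from 4.19 against 6.37 TPM and 438 against 455 TPM. Without Krt10-202 the replicate 1 value was 1.22, which turns its direction. For the basal pair, the log2 ratio of Krt5 to Krt14, with 0.1 TPM added to each, was 0.70 and 0.50. For the suprabasal pair, Krt1 to Krt10, it was -3.00 and -0.07, the first being the value that carries Krt10-202. For the simple epithelial pair, Krt8 to Krt18, it was 0.76 and 0.23. Krt7 to Krt19 gave -1.04 and -0.37, and Krt4 to Krt13 gave 1.49 and 1.32, both from few reads. The direction of Krt7 to Krt19 is not settled, since the table made directly from reads gave 0.03 and 1.67. The 2 suprabasal partners were thus nearly equal in replicate 2.

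Other pairs can be read in replicate 2 alone, since each held 5 counts or fewer per gene in replicate 1. There the log2 ratio was 0.83 for Krt71 to Krt25, -1.83 for Krt73 to Krt27, -0.30 for Krt81 to Krt31, -0.97 for Krt82 to Krt32 and -0.44 for Krt6a to Krt16. The most uneven was Krt6b to Krt17, at -4.46. The first 5 of these pairs were within 3.54-fold of equal, and Krt17 exceeded Krt6b by 22.01-fold on this scale.

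Counted gene by gene, 38 of the 53 keratins had a mean of 10 counts or more over the libraries and 15 did not. Of the 38, 33 (86.8%) were over 2-fold higher in replicate 2 by scaled counts, 0 were over 2-fold lower and 5 were within 2-fold (Krt8, Krt18, Krt7, Krt4 and Krt222). Over all 17998 genes with such a mean, 5.23% were over 2-fold higher in replicate 2 and 1.13% over 2-fold lower; among protein-coding genes 5.6% were higher. Over 100-fold higher were 17 keratins and 0.372% of all genes. The median log2 ratio of the 38, with counts of 0 set to 3, was 6.53, and that of all genes was 0.01. Many of the 38 passed the minimum through replicate 2 alone and had to differ, and the family was chosen on this contrast, so nothing is read from these counts.

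**Figure D3:**
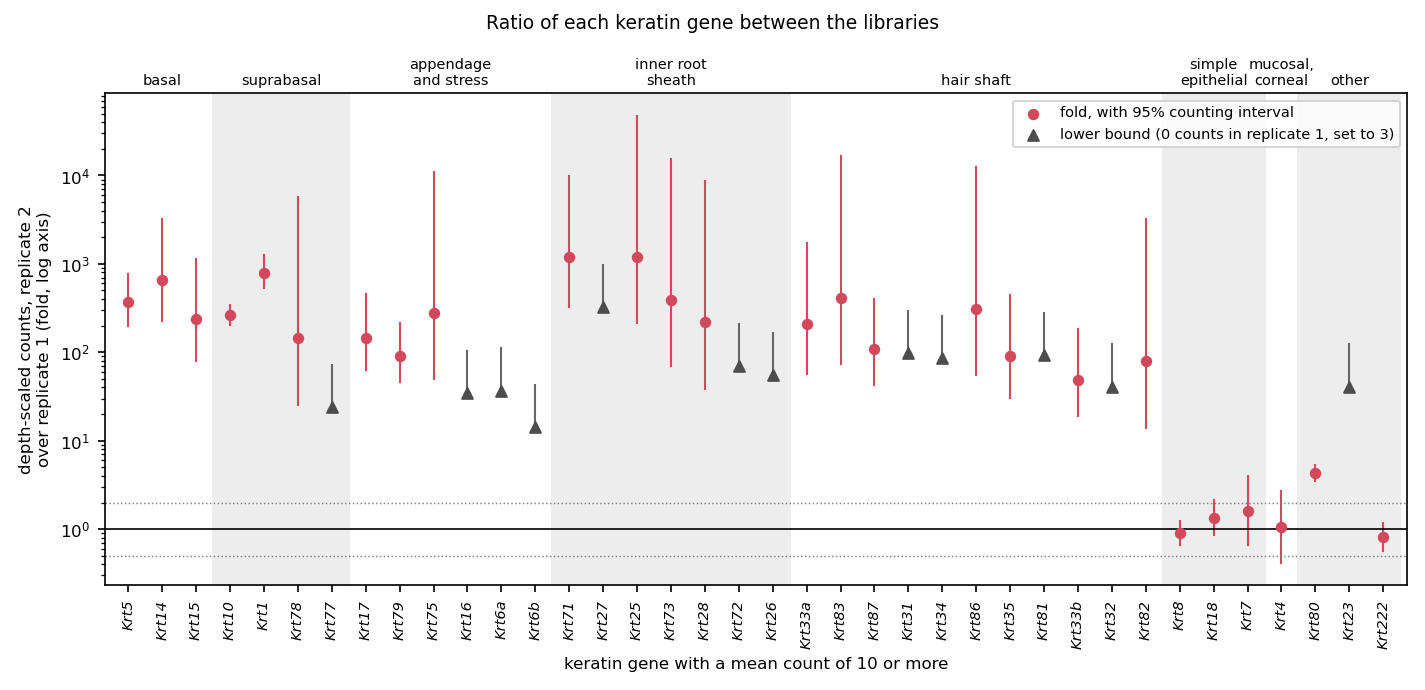
Ratio of scaled counts, replicate 2 over replicate 1, for the 38 keratins with a mean of 10 counts or more. The axis is logarithmic, with exact 95% intervals of the split of counts. For genes with a count of 0 in replicate 1 the marker sets the 0 to 3 counts and its stem only points upward. Epidermal and hair keratins lie far above 1, and Krt8, Krt18, Krt7, Krt4 and Krt222 lie within the dotted lines at 2-fold.

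Other genes of skin differed in the same direction as the keratins. The 28 listed epidermal genes that are not keratins summed to 57.3 and 624 TPM. Of these, 25 were over 2-fold higher in replicate 2 and 0 lower, against 5.23% and 1.13% of all genes tested. In this count 12 of the 28 passed the minimum through replicate 2 alone and had to differ; the same was true of 5 of the 11 hair follicle genes and 7 of the 15 regulators tested below, so nothing is read from such counts. Filaggrin (Flg), which bundles keratin filaments in the cornifying layers, was at 1.11 and 235 TPM. Krtdap, a protein of differentiating keratinocytes, was at 5.68 and 65.8 TPM and suprabasin (Sbsn) at 1.68 and 35.9 TPM. The desmosomal genes Dsg1a, Dsg3 and Dsc1 had 0 counts in replicate 1. The 3 within 2-fold were plakoglobin (Jup) at 37.3 and 49.4 TPM, a junction protein also made in muscle, the basal epidermal factor Trp63 at 4.56 and 6.37 TPM and the hemidesmosome integrin Itgb4 at 2.52 and 4.37 TPM. The 12 listed hair follicle genes summed to 2.56 and 41.0 TPM, and of the 11 tested 10 were over 2-fold higher. The exception was Lgr5, within 2-fold by scaled counts, at 0.75 and 1.52 TPM from 99 and 142 counts. Trichohyalin (Tchh), which links keratin filaments in the inner root sheath, was at 0.17 and 25.9 TPM, most of the replicate 2 sum.

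The regulators of keratin-expressing epithelia did not all differ between the libraries. The 16 listed summed to 35.2 and 57.0 TPM. Of the 15 with enough reads, 12 were over 2-fold higher in replicate 2, against 5.23% of all genes tested. Among the 15, 7 passed the minimum through replicate 2 alone and had to differ, so nothing is read from this count. Elf3, with too few reads, was at 0.17 and 0.21 TPM (6 and 11 counts). Most of the listed regulators also stand in the epidermal, hair follicle or simple epithelial lists, so the lists are not separate sets. The transcription factor Klf4 was at 20.1 and 20.4 TPM and Klf5 at 8.17 and 11.1 TPM, so the most abundant regulators were close in both libraries. The epidermal factor Gata3 was at 0.78 and 2.92 TPM, Dlx3 at 0.14 and 3.16 TPM, and Foxn1, needed for hair keratin expression, at 0 and 0.59 TPM.

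Markers of other cells that skin or its surroundings hold were compared in the same way. Over all genes tested, 5.23% were over 2-fold higher in replicate 2. Of the 8 melanocyte genes 3 of 4 with enough reads were over 2-fold higher. Of these, 1 had only 6 counts in replicate 1 and passed through replicate 2 alone. That list summed to 3.16 and 8.41 TPM, with Dct at 1.05 and 2.71 TPM and Pmel at 1.63 and 3.47 TPM. Sebaceous genes summed to 10.9 and 14.4 TPM, with 4 of 6 over 2-fold higher, each of which had fewer than 10 counts in replicate 1. The 2 sebaceous genes with more reads, Soat1 at 9.09 and 10 TPM and Mc5r at 1.59 and 0.99 TPM, were within 2-fold. The 5 mesothelial genes stood at 0.29 and 0.79 TPM in sum. Only Msln had enough reads, at 0.18 and 0.54 TPM from 10 and 11 counts, and it was within 2-fold by scaled counts. The 5 endothelial genes stood at 210 and 223 TPM in sum, with 0 over 2-fold apart. Merkel cell genes stood at 11.3 and 13.8 TPM, with 1 of 3 tested over 2-fold higher. Atoh1, which defines that cell, had 0 counts in both libraries. Summed levels were thus well apart for the epidermal and hair follicle lists and close for the endothelial and muscle lists. The simple epithelial and melanocyte sums were also higher in replicate 2, though smaller there than the epidermal and hair follicle sums. The mesothelial sum was higher too, but rested on few reads. The sebaceous and Merkel cell sums were close, but each rested mostly on 1 gene: Soat1 and Piezo2. Piezo2 was at 10.3 and 12.5 TPM. The part of skin in the keratin values was not tested.

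**Figure D4:**
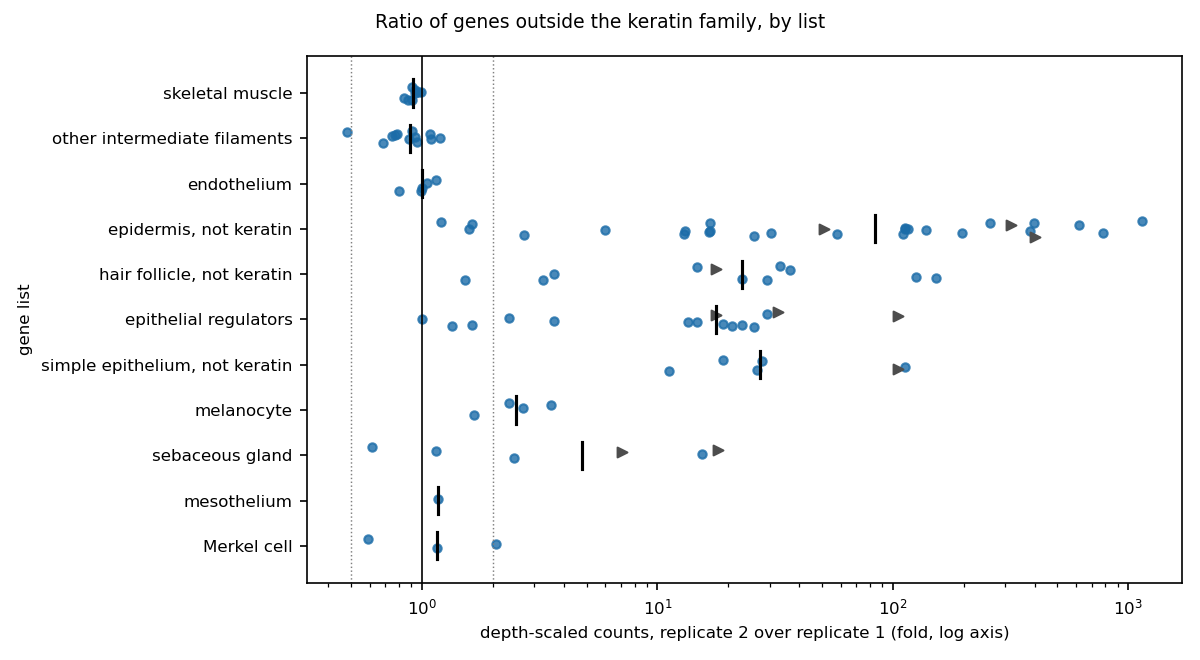
Ratio of scaled counts, replicate 2 over replicate 1, on a log axis for each gene with a mean of 10 counts or more in the lists outside the keratins; triangles are lower bounds, black bars are medians and dotted lines mark 2-fold. Skeletal muscle and endothelial genes lie within 2-fold, and 25 of 28 epidermal genes lie above it.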

How the data were processed

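Total RNA-seq of gastrocnemius from 2 male mice gave 2 libraries, 1 per animal. Per the file headers and the deposited notes, the authors made 2 kinds of table per library on mm10 with GENCODE M21: one from transcriptome alignments, with expected counts and TPM per gene and transcript and each transcript's percent of its gene, and one made directly from reads, with estimated counts and TPM per transcript. Both were made with aligner and quantifier not given in the sources used here. TPM of the deposited gene tables was used as given; each library is scaled to the same total over all entries, spike-ins included.

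Counts were scaled by edgeR 4.0.16 in R 4.3.3 with its trimmed mean method (TMM), and ratios were formed in Python 3.11.15 with scipy 1.17.1 intervals at 95% confidence and a floor of 3 counts. The ratio calculation was tested on simulated data. A gene was counted as over 2-fold apart only with a mean of 10 counts or more; keratin pairs were compared with 0.1 TPM added. Spike-ins and entries that name no gene (0.000152% and 0.000172% of the counts) were left out of the scaling. Every keratin was named with its values where it reached 1 TPM in a library or belonged to a pair; the rest are given briefly. Of the other lists, up to 4 genes of highest mean TPM and genes absent from both libraries were to be named; Dsg1a, Dsg3, Dsc1, Itgb4, Foxn1 and Prph were added after their values were seen. Of the 54 symbols in the class list 52 matched. The members, classes and lists were chosen with earlier results of these data known. Alternatives changed the table, the scaling, the filter, the thresholds and the libraries used.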

Additional observations from a re-analysis of the deposited data

How the results depend on the processing

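The direction of the difference held under every alternative that was run, and the count of keratins over 2-fold higher in replicate 2 stayed within 1.5 times its value in 8 of 8 alternatives. The summed keratin level was 18.5 and 1344 TPM in the table made directly from reads, 14.2 and 1540 CPM without division by length, and 25.2 and 2146 TPM, mean 1086, when rescaled to nuclear protein-coding genes; these 3 change the unit or the denominator by construction. Without the transcript Krt10-202, an alternative chosen after seeing the data, it was 7.62 and 893 TPM. The fold of the sum was 72.5 directly from reads and 109 by CPM. Keratins at 1 TPM or more in replicate 1 numbered 1 with a minimum of 2 TPM and 10 with a minimum of 10 counts in its place. In both libraries together they numbered 5 directly from reads, 5 at 0.5 TPM, 1 at 2 TPM and 9 at 10 counts. Leaving out a library gave 4 to 33, because the count is then that of the other library alone. With no minimum count, 2 keratins were over 2-fold lower in replicate 2. Of the single-gene ratios recomputed, 151 stayed within their interval and 1, that of Krt35, did not. Its log2 ratio was 4.76 directly from reads against 6.49, and the cause was not tested. Apart from those made directly from reads, these recomputations changed only the scaling, which shifts a log2 ratio by less than its interval allows. Their staying within the interval is therefore no result. The intervals of genes with no counts in replicate 1 also had no upper limit. Over all genes the share over 2-fold higher was 1.58% with a mean count of 100 or more and 2.82% at a fold of 4. Class shares moved beyond their spread in 15 recomputations and stayed within it in 49. That spread was the counting interval within a library and the SD for the mean of both. Pair ratios moved beyond their SD in 12 and stayed within it in 54. Both tallies hold recomputations that left out 1 library. With 2 libraries these lie within the SD by construction, so their staying within it is no result. The mean log2 ratio of Krt7 to Krt19 was -0.70 as reported, 0.85 directly from reads and 0.47 by CPM, and that of Krt4 to Krt13 ran from 0.24 to 3.53 with the amount of TPM added. No paired analysis was possible because there was only 1 group. The depth of replicate 1 limits every ratio that rests on fewer than about 10 of its reads.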

Other observations

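Genes of related name outside the rule were looked up after the keratin values were seen. The 57 protein-coding keratin-associated protein genes, which encode the matrix around hair keratin filaments, summed to 0.24 TPM (4 counts) in replicate 1 and 178 TPM (3068 counts) in replicate 2. Reads were found for 4 of them in replicate 1 and 54 in replicate 2. At 1 TPM or more stood 0 in replicate 1 and 43 in replicate 2. Of all protein-coding genes, 55.9% and 58.1% reached that level. Krtap8-1 had 0 counts and then 19.0 TPM, and Krtap7-1 had 0 counts and then 15.9 TPM. With each 0 set to 3 counts they were 86.8-fold and 79.8-fold higher. Krtap15 was at 0.05 and 10.98 TPM, from 1 and 225 counts. The 2 keratin pseudogenes held 1 and 6 counts in all. Krtcap2 and Krtcap3, which share only the start of their names with the family, stood at 47.6 and 45.0 TPM and at 1.68 and 1.39 TPM.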
